A study of Mus musculus with 19 samples.

Results

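The comparison described here sets tumours given 6-thio-dG alone (thio from here on, n = 4) against tumours given osimertinib alone (n = 5), across all genes measured. The members were chosen by treatment label only, and they make up 9 of the 19 libraries of the study. RNA came from tumours of HCC827, an established human non-small cell lung cancer line that depends on a mutated EGFR, grown in NCG mice, a strain without T, B and natural killer cells. All groups share this line and this host. Thio received 6-thio-dG and no EGFR inhibitor. The osimertinib group received osimertinib and no 6-thio-dG. The study also holds 5 tumours given both drugs (combination) and 5 given the vehicle DMSO (control). Dose, duration, the size of the tumours at collection and the age of the mice are not given in the labels used here, and nothing in them says whether the libraries come from separate animals. Each p therefore measures the spread between these samples.

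Osimertinib binds the mutated EGFR covalently and shuts off the kinase signal on which these cells depend, with the ERK and AKT pathways below it. 6-thio-dG is an analogue of deoxyguanosine that telomerase can add to chromosome ends, where it disturbs the protein cap and can start a damage response. In epithelial tumours, cell damage and innate sensing commonly converge on NF-kB, the transcription factor family that drives chemokine and cytokine genes. The comparison asks how tumours under a telomere-directed drug differ in expression from tumours under an EGFR-directed drug.

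The libraries held 25322580 to 34664918 counts in thio and 23068873 to 35397346 counts in osimertinib. Genes carry human symbols without positions, and the submitters' processing notes name hg38, while the organism label names the mouse host. Epithelial markers were abundant in all 9 libraries, at 12899 to 20932 summed CPM (counts scaled to a common library total) in thio and 18605 to 20610 in osimertinib, while the lymphocyte list summed to at most 1.45 CPM in thio and 3.55 CPM in osimertinib. Mitochondrially encoded transcripts made up 6.45% ± 1.07 of thio counts (SD, n = 4) and 12.0% ± 3.42 of osimertinib counts (SD, n = 5). Thio 3 stood apart from the other thio libraries, with the lowest scaling factor of the 9 libraries (0.893) and the highest thio level in 23 of 53 gene lists. Where leaving out thio 3 moved the fold of a named gene by over 1.5 times, its fold without thio 3 is given. Calls of thio against osimertinib were refitted with each of the 19 libraries left out in turn. Unless a library is named, those of genes given with a fold change and SE held throughout. Calls against control were not refitted in this way.

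Of 16704 genes tested, 2969 were called at an adjusted p under 0.05 (17.8%). In thio 1545 of them were higher than in osimertinib (9.25%) and 1424 were lower (8.52%). A change of at least 2-fold was seen for 6.72% of genes, 601 called genes that were higher in thio (3.6%) and 522 that were lower (3.12%). The median log2 fold change over all tested genes was -0.02. Here and below, a gene that rose or fell was higher or lower in thio than in osimertinib, which does not give its change from control. The number called was 1387 without thio 3, 1934 without thio 1 and 1824 without osimertinib 4. With upper-quartile scaling, which moved the median of all genes to -0.12, 1157 genes were higher in thio and 2070 were lower.

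**Figure D1:**
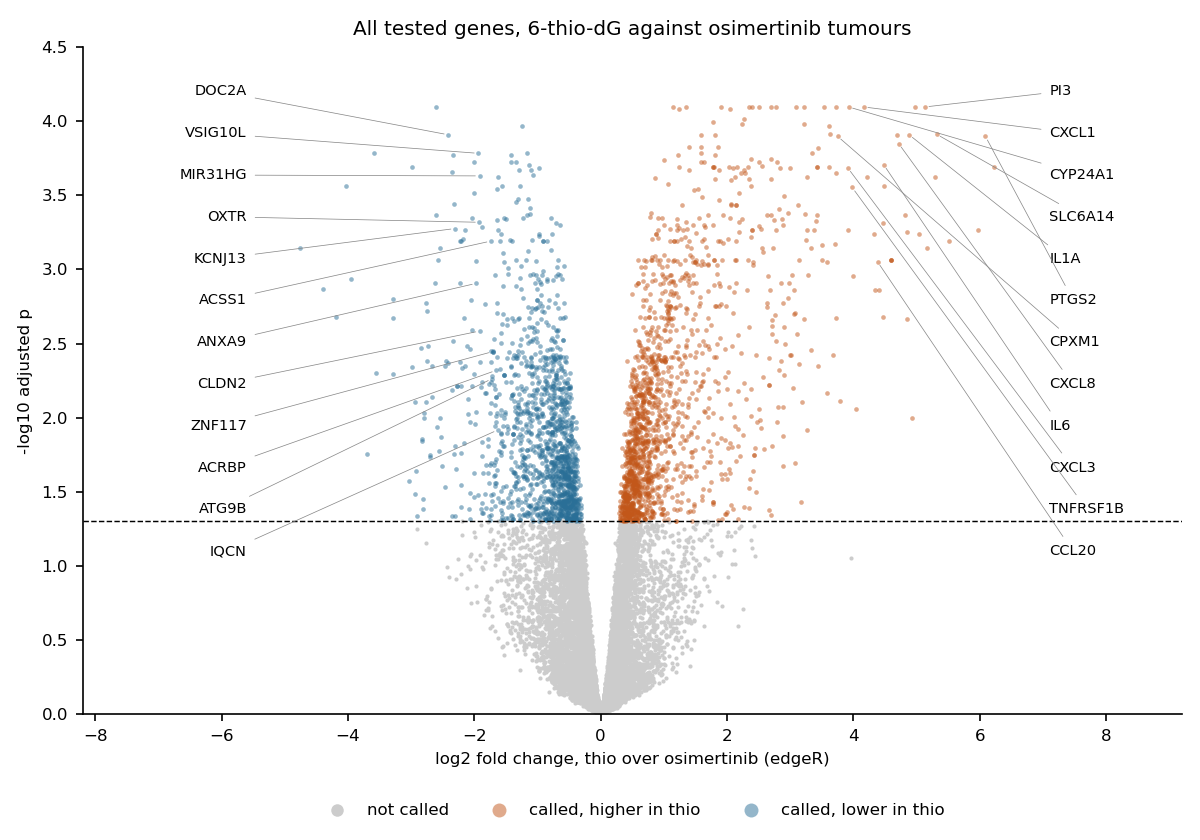
Every tested gene is a point, with the log2 fold change of thio over osimertinib on the x axis and minus log10 of the adjusted p on the y axis; the dashed line is an adjusted p of 0.05. The 12 named genes with the largest folds in each direction reach 6.09 for PTGS2 on the side higher in thio and -2.41 for DOC2A on the side lower in thio.

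Gene lists gave the outline of the difference. The lists with the largest shares higher in thio were the hypoxia response, the inflammatory cytokines with other NF-kB output, and glycolysis, with 22 of 23, 26 of 28 and 18 of 23 tested members higher and none lower. The lists with the largest shares lower in thio were the mitochondrial genome (10 of 13), replication-dependent histones (11 of 20) and motile cilium genes (10 of 20). Over all genes 9.25% were higher and 8.52% lower, the shares to set beside every list count below. The lists of mitosis, DNA repair, purine handling, nuclear respiratory subunits and ribosomal proteins each had smaller shares called than all genes in both directions. Of the 45 list counts of 1 to 3 called members, 37 moved by over 1.5 times without at least 1 library, 30 of them without thio 3 and 25 without osimertinib 4.

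**Figure D2:**
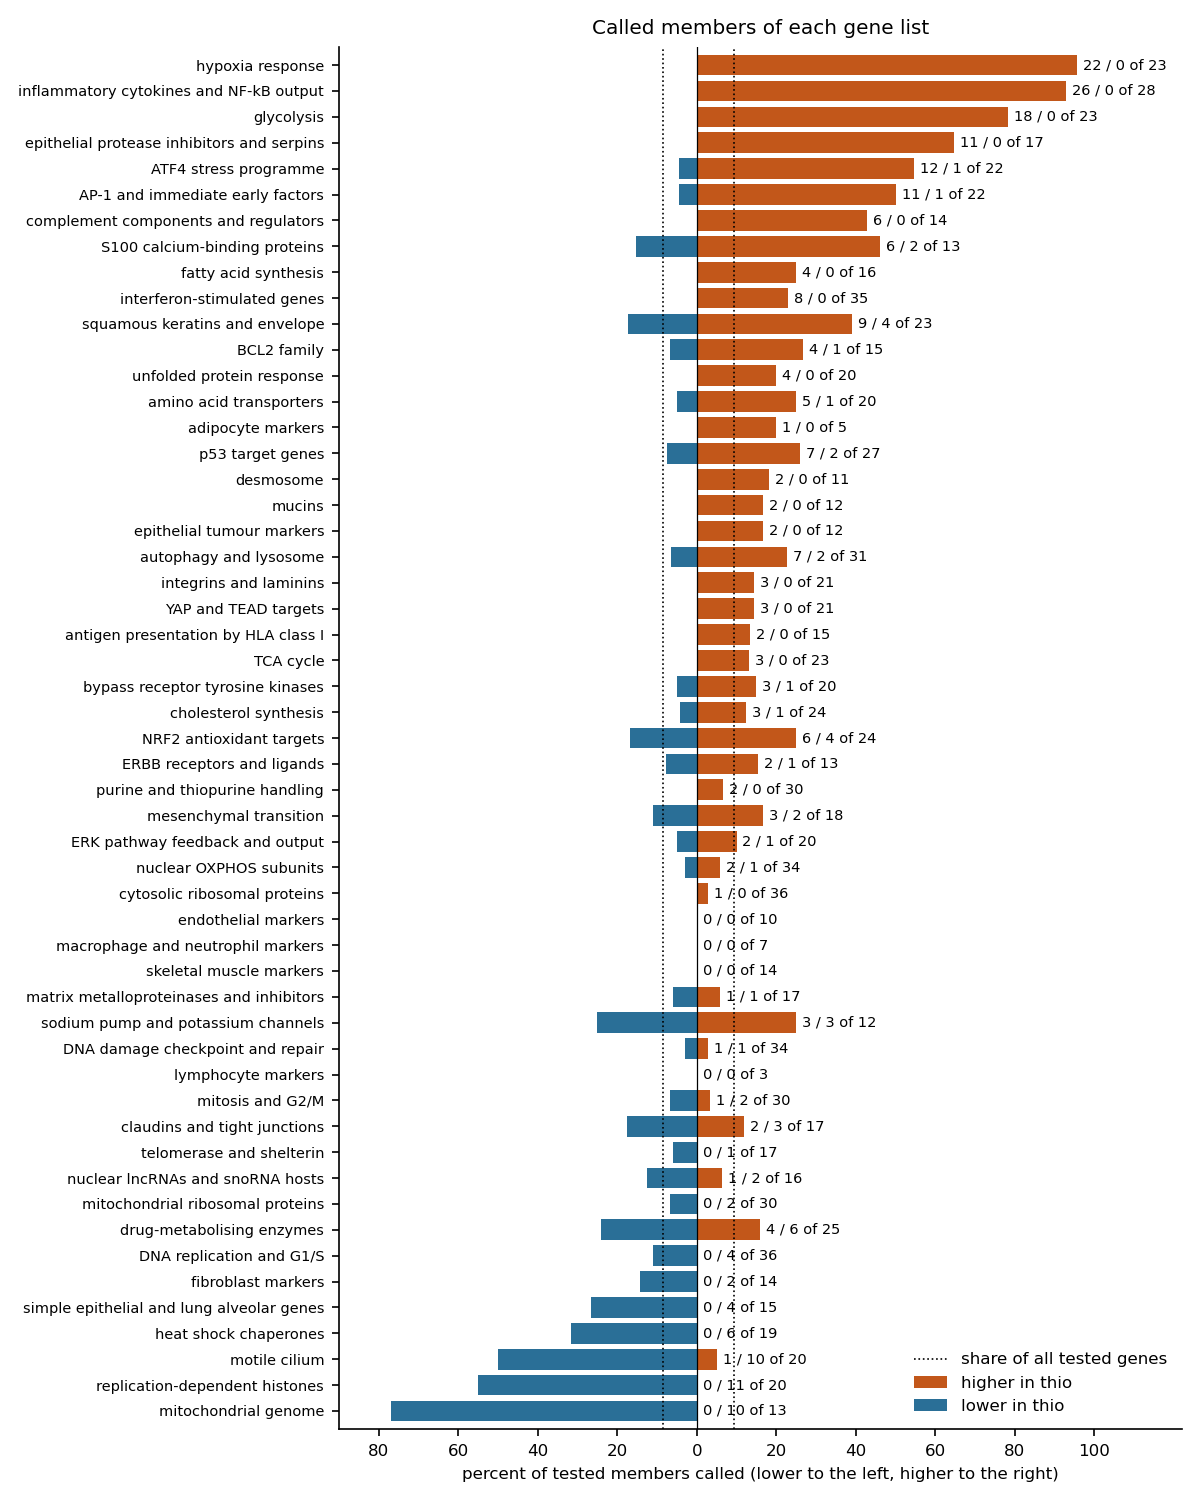
Bars give the percent of tested members of each list that were called higher in thio (right) or lower in thio (left), with the numbers higher and lower beside them. Dotted lines mark the shares over all tested genes, 9.25% and 8.52%.

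The list of inflammatory cytokines and other NF-kB output had the largest median log2 fold change of the lists. Chemokines that attract neutrophils, the interleukins that start an acute response, and the feedback inhibitors of NF-kB were higher in thio than in osimertinib. Of 28 tested members, 26 were higher and 0 lower, and the median log2 fold change was 2.54. The count was 20 without thio 3, and the 4 thio libraries lay above all 5 osimertinib libraries for 17 members, against 8.84% of all genes. In either direction 18.2% of all genes had no overlap, and 9.32% had every thio library below. The remaining members, IL11 and TRAF1, did not pass the test, and 1 member was lower without thio 3 or control 3.

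PTGS2, the inducible enzyme of prostaglandin synthesis, was at 489, 31.6, 1415 and 128 CPM in thio 1 to 4, against 5.40, 11.6, 5.17, 6.82 and 8.89 CPM in osimertinib 1 to 5. The groups did not overlap, as the rule for the 12 named genes in each direction required. Thio 3 and thio 1 were far above thio 4 and thio 2. Its log2 fold change was 6.09 ± 0.82 (SE, adjusted p = 0.000127), the largest of the 12 named genes highest in thio, and 4.85 without thio 3. CXCL8, a neutrophil chemokine, was at 541, 56.5, 1471 and 197 CPM in thio, against 19.5, 34.9, 15.5, 19.0 and 18.6 CPM in osimertinib (4.72 ± 0.64, adjusted p = 0.000142, and 3.64 without thio 3). The order of the 4 thio libraries was the one seen for PTGS2. No osimertinib library reached the lowest of them, as the same rule required.

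IL6 was at 83.1, 9.30, 383 and 49.0 CPM in thio, against 5.74, 7.48, 4.97, 4.97 and 6.13 CPM in osimertinib (4.48 ± 0.64, adjusted p = 0.000197). Thio 2 was barely above the highest osimertinib library, and without thio 3 the fold was 3.02. IL1A, the alarm cytokine that epithelial cells release when damaged, differed by 4.88 ± 0.65 on the log2 scale (adjusted p = 0.000124, and 3.95 without thio 3). CXCL1 was at 1427, 209, 3093 and 624 CPM in thio, against 56.2, 117, 43.1, 88.6 and 68.0 CPM in osimertinib (4.16 ± 0.52, adjusted p = 8.02e-05, and 3.35 without thio 3). CXCL5, another ligand of the receptor CXCR2, and CCL20, which attracts dendritic cells and some lymphocytes, followed with 3.64 ± 0.48 and 4.38 ± 0.78, or 2.91 and 3.64 without thio 3. CXCL1 and CXCL3 share long stretches of sequence with CXCL2, so the split of reads between them is uncertain. TNFRSF1B, the second receptor for TNF, was at 19.5, 4.94, 78.4 and 7.45 CPM in thio, against 1.18 to 2.42 CPM in osimertinib (3.98 ± 0.61, adjusted p = 0.00028, and 2.63 without thio 3).

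The same order of thio libraries held for the list as a whole. Its mean level lay 3.75, 2.66, 1.50 and 0.76 log2 units above the osimertinib mean in thio 3, thio 1, thio 4 and thio 2. The 5 osimertinib libraries spread from -0.46 to 0.30 around their own mean, so the size of the inflammatory difference varied far more among thio tumours than its direction did.

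**Figure D3:**
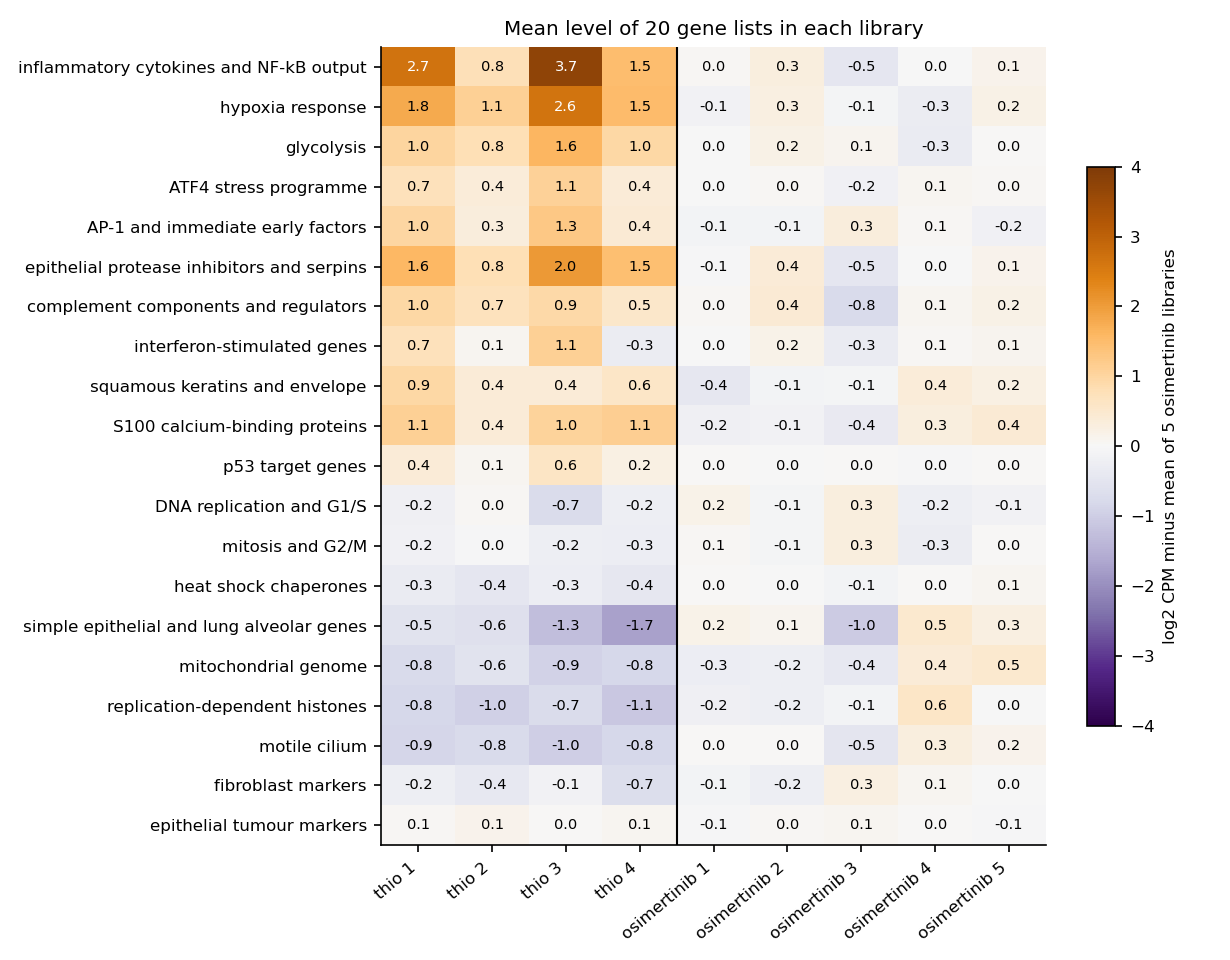
Colour and number give the mean log2 CPM of each list in each thio library (left of the line) and each osimertinib library (right), minus the mean of the 5 osimertinib libraries. Thio 3 has the largest values for the inflammatory and hypoxia lists (3.7 and 2.6), and thio 2 has the smallest of the 4 (0.8 and 1.1).

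Complement genes moved the same way. Of 14 tested components and regulators, 6 were higher in thio and 0 lower (median 0.39). C3, the central component that is cleaved when complement is activated, was at 1334, 573, 2499 and 1205 CPM in thio, against 149, 232, 65.6, 104 and 202 CPM in osimertinib (3.22 ± 0.40, adjusted p = 8.02e-05). Every thio library had more than the highest osimertinib library. CFB, the protease of the alternative pathway, rose by 2.87 ± 0.47 and the membrane inhibitor CD55 by 2.03 ± 0.38 (adjusted p = 0.000458 and 0.00131), and C1R, a protease of the classical pathway, by 1.60 ± 0.37 (adjusted p = 0.00577). Without thio 3, which had 357 CPM of CD55, the folds of CFB and CD55 were 2.04 and 0.97.

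Interferon-stimulated genes moved less. Of 35 tested members, 8 were higher in thio and 0 lower, with a median of 0.34, and without thio 3 only 4 were called. RIGI, a sensor of cytosolic RNA, was at 6.16 to 45.3 CPM in thio, against 2.44 to 3.82 CPM in osimertinib (2.55 ± 0.44, adjusted p = 0.000714). IRF1, a transcription factor that NF-kB and interferon both induce, rose by 1.24 ± 0.27 (adjusted p = 0.00401). GBP2, a guanylate-binding protein of the interferon response, was at 184, 93.3, 468 and 119.6 CPM in thio, against 76.8, 94.2, 65.2, 71.6 and 96.5 CPM in osimertinib (1.42 ± 0.31, adjusted p = 0.00376), with thio 2 inside the osimertinib range. Without thio 3 the folds of RIGI, IRF1 and GBP2 were 1.70, 0.65 and 0.73. Presentation by HLA class I had 2 of 15 members called, where 17.8% of all genes were called. These were HLA-E (0.89 ± 0.24, adjusted p = 0.0162) and TAPBP (0.40 ± 0.14, adjusted p = 0.0495). Without thio 3 neither was called, and TAPBP lost its call without most other single libraries too. With the mitochondrial share as a covariate 5 interferon-stimulated genes were higher.

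Genes that HIF, the oxygen-sensing transcription factor, is known to induce all had higher estimates in thio, and 1 did not pass the test. Of 23 tested members of the hypoxia list, 22 were higher in thio and 0 lower, with a median log2 fold change of 1.71, and 20 to 23 were called when any library was left out. ADM, which encodes the vasodilator adrenomedullin, was at 89.4, 31.2, 206 and 52.6 CPM in thio, against 5.74, 10.4, 5.14, 5.61 and 9.15 CPM in osimertinib (3.72 ± 0.45, adjusted p = 8.02e-05, and 3.02 without thio 3). The lowest thio library was about 3 times the highest osimertinib library. LOX, which cross-links collagen, rose by 3.44 ± 0.47 (adjusted p = 0.000152, and 2.62 without thio 3). ERO1A, an oxidase of protein folding in the endoplasmic reticulum, was at 439.7, 278, 590.4 and 299 CPM in thio, against 123, 130.1, 123, 96.2 and 111 CPM in osimertinib (1.78 ± 0.23, adjusted p = 0.000101). PDK1, a kinase that inhibits pyruvate dehydrogenase, rose by 2.24 ± 0.29 (adjusted p = 0.000104).

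Enzymes of glycolysis rose with them, at 18 of 23 tested members and a median of 1.04. HK2, the inducible hexokinase, was at 202, 90.3, 446 and 111 CPM in thio, against 33.6, 42.6, 32.9, 22.5 and 31.0 CPM in osimertinib (2.70 ± 0.38, adjusted p = 0.000181, and 2.06 without thio 3). All thio libraries were at least 2 times the highest osimertinib library. PFKFB3 and PFKFB4, which set the level of the activator of phosphofructokinase, rose by 2.34 ± 0.34 and 2.38 ± 0.34, and the aldolase ALDOC by 1.59 ± 0.22 (adjusted p = 0.000204, 0.000181 and 0.000165). The 5 members that did not pass were SLC2A3, PFKM, PKM, LDHB and SLC16A1. These names were taken from the list after their values were seen.

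Transcripts of the mitochondrial genome went the other way. They encode 13 subunits of the respiratory chain and ATP synthase. Their share of all counts was 6.21%, 7.86%, 5.27% and 6.46% in thio, against 9.66%, 10.2%, 8.62%, 16.0% and 15.3% in osimertinib, and 8.15% ± 0.835 (SD, n = 5) in control. The groups did not overlap, and the difference of -5.51 percentage points gave p = 0.0159 in a 2-sided exact permutation test, the smallest p that 4 against 5 libraries can give. Osimertinib 4 and osimertinib 5 were the highest. With this share as a covariate, 2573 genes were called. Since the share did not overlap between the 2 groups, its part and that of the treatment cannot be told apart in this contrast. The same fit also held the combination libraries, at 11.0% to 30.2%.

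Of the 13 genes, 10 were called lower in thio and 0 higher (median -0.85). The number called was 3 without thio 1, thio 3, osimertinib 4 or osimertinib 5, and 4 without thio 4 or with the share itself as a covariate. ND3, a subunit of complex I, was at 227, 212, 217 and 206 CPM in thio, against 386, 383, 287, 656 and 539.6 CPM in osimertinib (-1.06 ± 0.27, adjusted p = 0.00946). COX1, a catalytic subunit of complex IV, was lower by the same test (-0.93 ± 0.27, adjusted p = 0.0203), and its call was lost without each of thio 1, thio 3, osimertinib 4 and osimertinib 5. Subunits encoded in the nucleus did not show this pattern. Of 34 tested, 2 were higher and 1 lower (median -0.13), and in the TCA cycle 3 of 23 were higher and 0 lower (median 0.12). Without thio 3 none of those 3 TCA cycle genes was called. With the share as a covariate 4 nuclear subunits and 2 TCA cycle genes were lower and 0 higher. SUCLG2, the subunit of succinyl-CoA synthetase that the title of the study names, was at 51.4, 52.8, 55.9 and 44.9 CPM in thio, against 50.9, 48.7, 54.7, 37.0 and 37.0 CPM in osimertinib. The groups overlapped, and its log2 fold change of 0.17 ± 0.18 did not pass the test (adjusted p = 0.581).

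Stress genes split by branch. The ATF4 programme, which cells switch on when translation is held back by amino acid shortage or unfolded protein, had 12 of 22 tested members higher in thio and 1 lower (median 0.56). ATF3, a transcription factor induced by many stresses, was at 102, 36.1, 191 and 38.7 CPM in thio, against 8.66, 19.3, 17.7, 11.8 and 13.0 CPM in osimertinib (2.70 ± 0.41, adjusted p = 0.000246, and 2.08 without thio 3). The groups did not overlap. DDIT4, an inhibitor of mTORC1 that hypoxia also induces, rose by 1.87 ± 0.28 and PPP1R15A, which restarts translation, by 1.79 ± 0.32 (adjusted p = 0.000214 and 0.00087). The fold of PPP1R15A was 1.12 without thio 3. TRIB3, a pseudokinase that feeds back on ATF4, was at 69.5, 70.8, 99.3 and 79.3 CPM in thio, against 41.6, 44.4, 44.5, 37.3 and 29.3 CPM in osimertinib (1.01 ± 0.19, adjusted p = 0.00117), with a spread among the thio libraries much narrower than that of the cytokines. PSPH, an enzyme of serine synthesis, was the member that fell. It was named after its value was seen.

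In the unfolded protein response 4 of 20 members were higher and 0 lower (median 0.16), and 3 higher and 4 lower with the mitochondrial share as a covariate. They were HERPUD1 (0.88 ± 0.15), DNAJB9 (1.34 ± 0.24), XBP1 (0.96 ± 0.23) and EDEM1, genes of protein degradation and of the regulator itself. EDEM1 lost its call without thio 1, thio 3, osimertinib 4 or osimertinib 5. Of 19 heat shock chaperones 6 were lower in thio and 0 higher (median -0.40). Without thio 1 the count was 3. HSPB1, a small chaperone, was at 392, 495, 379.6 and 547 CPM in thio, against 842, 799, 675, 1213 and 758 CPM in osimertinib (-0.92 ± 0.21, adjusted p = 0.00457). No thio library reached the lowest osimertinib library. HSPE1, the co-chaperone inside mitochondria, fell by 0.73 ± 0.18 (log2, adjusted p = 0.00799). HSP90AA1, the inducible form of the abundant chaperone HSP90, had -0.74 ± 0.19 (adjusted p = 0.00946), a call lost without thio 3.

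The epithelial state differed as well. Protease inhibitors of squamous and inflamed epithelium had 11 of 17 tested members higher in thio and 0 lower (median 1.17), and 7 higher with the mitochondrial share as a covariate. PI3, the elastase inhibitor elafin, was at 153, 12.0, 403 and 116 CPM in thio, against 3.35, 6.11, 2.35, 5.57 and 7.14 CPM in osimertinib (5.13 ± 0.63, adjusted p = 8.02e-05, and 4.28 without thio 3). Thio 2 was nearest to the osimertinib libraries but still above them, as the rule for the named genes highest in thio required. SERPINB3, a squamous cell antigen, rose by 3.12 ± 0.49 and the secreted inhibitor SLPI by 1.67 ± 0.29 (adjusted p = 0.000368 and 0.000708). SERPINB3 and SERPINB4 are near-identical, so the reads of each are uncertain.

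Squamous keratins and envelope genes moved in both directions, with 9 of 23 tested members higher in thio and 4 lower (median 0.83). KRT6A, a keratin of stressed and wounded epithelium, was at 116, 30.7, 30.9 and 75.7 CPM in thio, against 1.74, 4.17, 3.11, 14.9 and 10.5 CPM in osimertinib (3.22 ± 0.65, adjusted p = 0.00215). The highest thio libraries were thio 1 and thio 4, not thio 3, and the groups did not overlap. KRT6A shares most of its sequence with KRT6B and KRT6C. KRT17 differed by 1.79 ± 0.47 on the log2 scale (adjusted p = 0.0129), lost without thio 4. KLK6, a secreted kallikrein protease, was at 45.3, 62.7, 49.3 and 42.7 CPM in thio, against 89.8, 120.3, 166, 145 and 101 CPM in osimertinib (-1.32 ± 0.28, adjusted p = 0.00381). The other members that were lower were KLK5, KLK7 and CNFN, which were named after their values were seen and were near or below 2 CPM in all 9 libraries.

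S100 proteins had 6 of 13 tested members higher and 2 lower (median 0.65). S100A9, a calcium-binding alarm protein, was at 238, 58.0, 147 and 165 CPM in thio, against 15.1, 13.5, 10.9, 22.1 and 20.6 CPM in osimertinib (3.21 ± 0.41, adjusted p = 0.000104). Here thio 1 was the highest and thio 2 the lowest, with no overlap. Its partner S100A8 overlapped between the groups (3.33 ± 0.71, adjusted p = 0.00352, and 3.93 without osimertinib 5), while S100A13 was lower in thio (-0.62 ± 0.16, adjusted p = 0.0107). In the desmosome, DSG2 (0.81 ± 0.22, adjusted p = 0.0162) and JUP (0.54 ± 0.15, adjusted p = 0.0192) were the 2 of 11 members called. Of all genes 17.8% were called, 9.25% higher and 8.52% lower. DSG2 lost its call without osimertinib 4 and JUP without thio 3.

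Some genes of the lung's own lineage were lower in thio. Of 15 tested alveolar and simple epithelial genes, 4 were lower and 0 higher (median -0.75). NKX2-1, the transcription factor that specifies lung and thyroid epithelium, was at 19.7, 27.9, 11.4 and 7.31 CPM in thio, against 53.2, 43.5, 29.3, 64.7 and 56.0 CPM in osimertinib (-1.57 ± 0.32, adjusted p = 0.00267). The highest thio library fell just short of osimertinib 3, the lowest of its group. LPCAT1, an enzyme of surfactant lipid, differed by -0.72 ± 0.21 on the log2 scale (adjusted p = 0.0194), a call lost without thio 1, thio 3 or osimertinib 4.

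Motile cilium genes had 10 of 20 tested members lower in thio and 1 higher (median -0.99). CFAP53, a protein of the ciliary axoneme, was at 3.74, 3.42, 1.90 and 4.22 CPM in thio, against 8.44, 7.59, 7.09, 13.8 and 14.6 CPM in osimertinib (-1.62 ± 0.27, adjusted p = 0.00054). There was no overlap, nor was there for CAPS or for CFAP43 (-1.02 ± 0.21, adjusted p = 0.00292). CCDC40, needed to assemble dynein arms, was lower in thio than in osimertinib by 0.97 ± 0.22 (log2, adjusted p = 0.00452), with thio 2 just above osimertinib 3. DNAH11, a dynein heavy chain, was the member that was higher, and its call was lost without thio 3 or osimertinib 4. It was named after its value was seen. The list had a mean log2 CPM of 2.05 in thio, 2.91 in osimertinib and 1.79 in control. Against control CFAP43 and CCDC40 had -0.15 and -0.31 in thio (adjusted p = 0.683 and 0.351). In osimertinib they had 0.88 and 0.66 (adjusted p = 0.0192 and 0.0652). CFAP53 and CAPS were instead below control in thio, at -1.29 and -1.05 (adjusted p = 0.00472 and 0.00317).

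The 12 named genes lowest in thio, chosen among genes with a mean log2 CPM of at least 2 and no overlap, ran to -2.41. Genes below that level are not ranked here. DOC2A, a calcium sensor of vesicle release, was at 3.16, 5.26, 1.46 and 5.03 CPM in thio, against 15.1, 15.5, 11.7, 33.6 and 24.3 CPM in osimertinib (-2.41 ± 0.32, adjusted p = 0.000124). KCNJ13, an inward rectifier potassium channel of epithelia, was at 2.26, 1.30, 0.531 and 3.00 CPM in thio, against 6.98, 6.13, 11.7, 12.0 and 7.88 CPM in osimertinib (-2.31 ± 0.38, adjusted p = 0.00053). In both genes the highest thio library was below the lowest osimertinib library. OXTR, the oxytocin receptor, was at 1.84 to 3.41 CPM in thio and 6.76 to 14.4 CPM in osimertinib (-1.92 ± 0.31, adjusted p = 0.000481). CLDN2, a claudin that forms cation pores in tight junctions, was at 12.9, 13.2, 1.86 and 9.45 CPM in thio, against 23.3, 30.0, 45.0, 54.1 and 24.7 CPM in osimertinib (-1.91 ± 0.39, adjusted p = 0.0026). Thio 3 was lowest, and the groups did not overlap.

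The host transcript of miR-31, MIR31HG, was lower in thio (-1.92 ± 0.29, adjusted p = 0.000234), as were the annexin ANXA9 (-1.97 ± 0.37, adjusted p = 0.00124), VSIG10L (-1.94 ± 0.27, adjusted p = 0.000165) and the mitochondrial acetyl-CoA synthetase ACSS1 (-1.74 ± 0.30, adjusted p = 0.000644). ATG9B, a scramblase of autophagosome formation, was at 12.8, 15.3, 17.0 and 11.5 CPM in thio, against 34.4, 60.5, 22.1, 63.8 and 52.2 CPM in osimertinib (-1.72 ± 0.39, adjusted p = 0.00546). Its relative ATG9A went the other way, at 24.6, 23.9, 37.2 and 28.2 CPM in thio, against 12.6, 16.0, 18.6, 9.73 and 10.0 CPM in osimertinib (1.09 ± 0.22, adjusted p = 0.00212). Neither gene overlapped between the groups, which for ATG9B the naming rule required. The autophagy and lysosome list as a whole had 7 of 31 members higher and 2 lower, and without thio 3 2 were higher, against 3 without osimertinib 1 or osimertinib 4. It had 4 higher and 5 lower with the mitochondrial share as a covariate, and 4 higher and 2 lower with the 2 groups alone. ZNF117 had the same counts as a readthrough transcript with ERV3-1 and stands for both (-1.71 ± 0.37, adjusted p = 0.00359). ACRBP and IQCN complete the 12 genes, at -1.65 ± 0.37 and -1.63 ± 0.43. IQCN lost its call without thio 3 and with the mitochondrial share as a covariate.

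**Figure D4:**
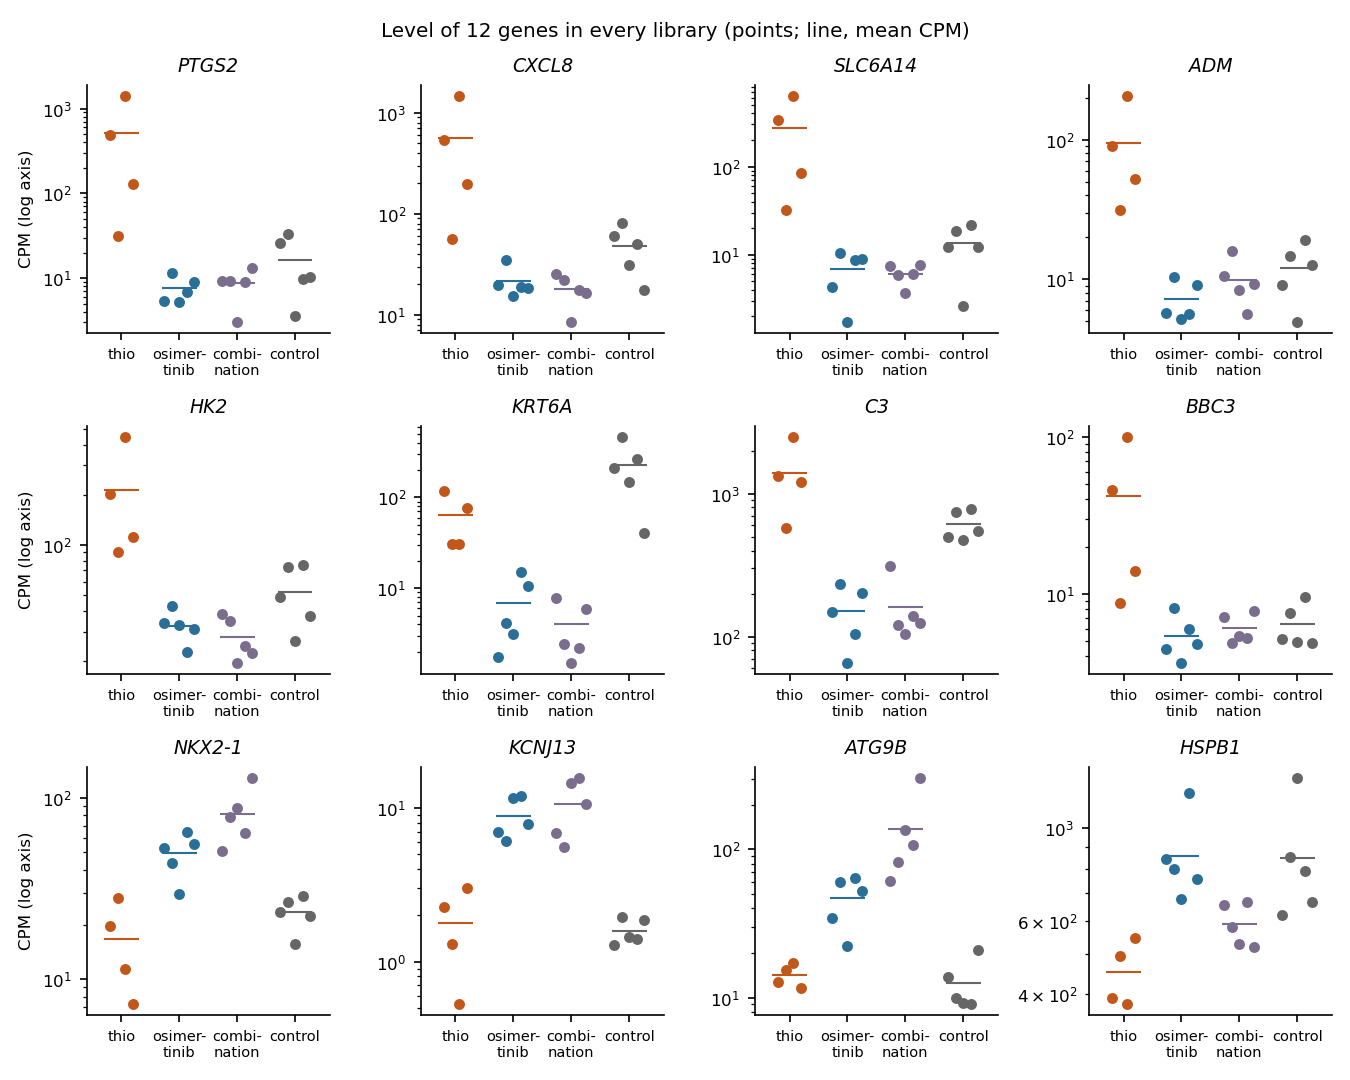
Points give the CPM of 12 genes in each library on a log axis, by group, and lines the mean CPM. PTGS2 is at 31.6 to 1415 CPM in thio and 5.17 to 11.6 CPM in osimertinib; KCNJ13 is at 0.531 to 3.00 CPM in thio and 6.13 to 12.0 CPM in osimertinib.

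Setting each drug beside the same 5 controls shows which group lay away from the vehicle level. Both columns share those controls, so they are given side by side only. Against control, 13.9% of tested genes were called in thio (9.27% higher, 4.63% lower) and 4.16% in osimertinib (2.7% higher, 1.46% lower). PTGS2 was at a log2 fold of 4.96 ± 0.78 in thio (adjusted p = 0.00102) and -1.13 ± 0.68 in osimertinib (adjusted p = 0.381). CXCL8 had 3.56 ± 0.61 in thio and -1.16 ± 0.55 in osimertinib (adjusted p = 0.00152 and 0.25). For ADM the values were 2.97 ± 0.44 in thio and -0.75 ± 0.41 in osimertinib (adjusted p = 0.000975 and 0.33), so for these 3 genes the thio tumours were the ones that passed the test.

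Other genes had the reverse or a mixed pattern. KRT6A had -1.84 ± 0.63 in thio (adjusted p = 0.057) and -5.05 ± 0.68 in osimertinib (adjusted p = 0.0015), so both estimates were below control and the difference between the drugs came with the lower level under osimertinib. KCNJ13 had 0.17 ± 0.38 in thio and 2.48 ± 0.36 in osimertinib (adjusted p = 0.794 and 0.00225). OXTR had -0.20 ± 0.31 in thio and 1.72 ± 0.29 in osimertinib (adjusted p = 0.697 and 0.00392), and ATG9B had 0.17 ± 0.38 in thio and 1.89 ± 0.37 in osimertinib (adjusted p = 0.802 and 0.00767). NKX2-1 had -0.50 ± 0.32 in thio and 1.08 ± 0.30 in osimertinib (adjusted p = 0.303 and 0.0427). SLPI, ITGA5 and SLC43A2 were below control in osimertinib, at -1.32 ± 0.28, -0.66 ± 0.18 and -1.09 ± 0.28 (adjusted p = 0.0118, 0.0454 and 0.0324). In thio none of them passed the test, at 0.35 ± 0.29, 0.22 ± 0.19 and 0.54 ± 0.29 (adjusted p = 0.43, 0.473 and 0.213). PI3 moved in opposite directions, by 2.14 ± 0.56 in thio and -2.99 ± 0.57 in osimertinib (adjusted p = 0.016 and 0.00724), and so did C3, by 1.20 ± 0.38 in thio and -2.02 ± 0.37 in osimertinib (adjusted p = 0.0401 and 0.00612). HSPB1 and DOC2A were below control in thio, at -0.91 ± 0.21 and -1.86 ± 0.32 (adjusted p = 0.00757 and 0.00149), and at 0.01 ± 0.19 and 0.55 ± 0.28 in osimertinib (adjusted p = 0.981 and 0.274).

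**Figure D5:**
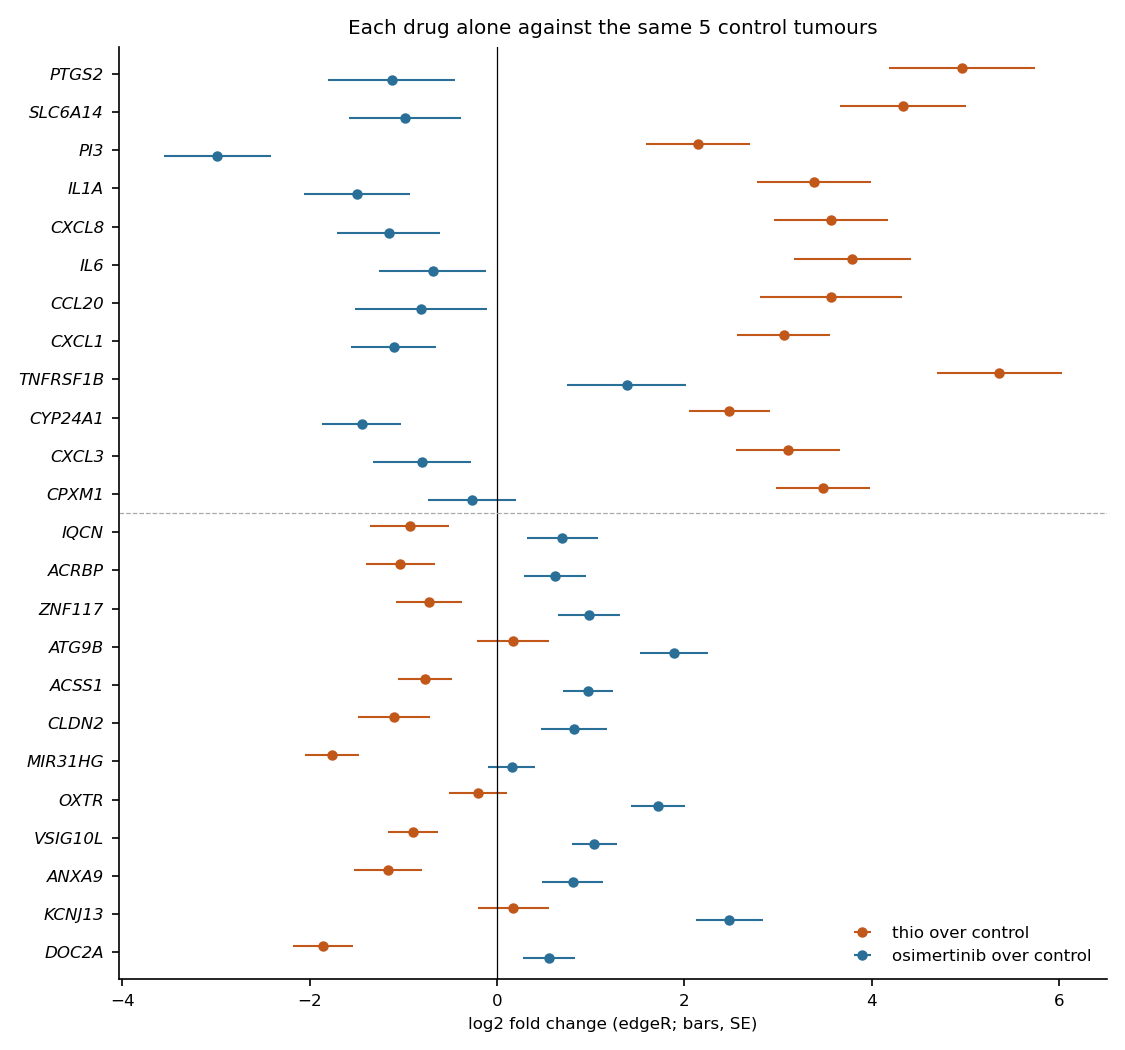
Points give the log2 fold change of thio (orange) and osimertinib (blue) over the same 5 controls, with SE bars, for the 12 named genes highest in thio relative to osimertinib (top) and the 12 lowest (bottom). PTGS2 sits at 4.96 in thio and -1.13 in osimertinib, KCNJ13 at 0.17 in thio and 2.48 in osimertinib.

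EGFR, the receptor that osimertinib targets, was at 5365, 5157, 8136 and 6035 CPM in thio, against 3944, 4196, 5111, 3121 and 3461 CPM in osimertinib (0.64 ± 0.18, adjusted p = 0.0211). The groups did not overlap, but the call was lost without thio 3, osimertinib 4 or osimertinib 5, where the highest adjusted p was 0.114, and with the mitochondrial share as a covariate. ERRFI1, a feedback inhibitor that binds EGFR, rose by 1.07 ± 0.24 (adjusted p = 0.00456). Both stand in the list of ERBB receptors, ligands and regulators, where 2 of 13 were higher and 1 lower. The lower count was 0 when any single thio library was left out. Of all genes 9.25% were higher and 8.52% lower. In the ERK output list DUSP5 (1.65 ± 0.35, adjusted p = 0.00323) and IER3 (0.66 ± 0.16, adjusted p = 0.00937) were higher and FOSL1 (-0.91 ± 0.30, adjusted p = 0.0383) was lower, of 20 tested. DUSP5 overlapped between the groups, IER3 lost its call without thio 3, and FOSL1 lost it without thio 1, thio 3 or any osimertinib library other than osimertinib 2. DUSP6, a phosphatase whose level tracks ERK activity in many cells, was at 90.4, 79.7, 53.2 and 71.2 CPM in thio, against 54.4, 58.3, 80.4, 75.3 and 45.1 CPM in osimertinib. The groups overlapped widely (0.23 ± 0.23, adjusted p = 0.533).

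AP-1 and immediate early factors had 11 of 22 members higher and 1 lower (median 0.68), and 6 higher without thio 3. JUNB was at 87.2, 79.4, 131 and 100.0 CPM in thio, against 53.6, 52.9, 60.8, 46.8 and 40.7 CPM in osimertinib (0.96 ± 0.16, adjusted p = 0.000449). KLF4, a zinc finger factor of barrier epithelium, and MAFF, a small MAF protein, rose by 1.78 ± 0.26 and 1.65 ± 0.27 (adjusted p = 0.000204 and 0.000517). Among receptor kinases known to bypass EGFR, 3 of 20 were higher and 1 lower, against 9.25% and 8.52% of all genes. Without thio 3 or osimertinib 1 only 1 was higher. INSR, the insulin receptor, rose by 0.87 ± 0.23 (adjusted p = 0.0132). MERTK, a receptor of the TAM family, was at 11.5, 14.6, 6.33 and 7.34 CPM in thio, against 26.1, 25.5, 22.3, 39.9 and 31.4 CPM in osimertinib (-1.54 ± 0.29, adjusted p = 0.00129). Its relative AXL overlapped between the groups (-0.06 ± 0.33, adjusted p = 0.922).

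Targets of p53 had 7 of 27 tested members higher and 2 lower (median 0.28), and 4 higher without thio 3. BBC3, which encodes the death-promoting protein PUMA, was at 46.0, 8.72, 100.3 and 14.1 CPM in thio, against 4.47, 8.15, 3.63, 5.93 and 4.77 CPM in osimertinib (2.96 ± 0.47, adjusted p = 0.000417, and 2.10 without thio 3). Thio 2 was just above osimertinib 2, and the other thio libraries were well above. MDM2, the ubiquitin ligase that limits p53, was at 119, 74.8, 137 and 76.3 CPM in thio, against 50.8, 45.0, 43.6, 44.2 and 58.6 CPM in osimertinib (1.07 ± 0.19, adjusted p = 0.000867). PLK2 rose by 1.40 ± 0.19 (adjusted p = 0.00015). CDKN1A, the cell cycle inhibitor p21, was higher in thio than in osimertinib by 1.30 ± 0.27 (adjusted p = 0.00244). It was at 31.0, 16.6, 54.4 and 44.1 CPM in thio, against 13.1, 13.6, 16.0, 13.8 and 17.7 CPM in osimertinib. Only thio 2 lay inside the osimertinib range. Against control CDKN1A did not pass the test in thio (0.35 ± 0.26, adjusted p = 0.398) and was lower in osimertinib (-0.96 ± 0.25, adjusted p = 0.0365). BAX, a pore-forming protein of the same pathway, had -0.46 ± 0.14 (adjusted p = 0.0273), a call lost without osimertinib 1 or osimertinib 4 and when any single thio library was left out. The BCL2 family, which holds BBC3 and BAX, had 4 of 15 members higher and 1 lower (median 0.46), with 7 higher without thio 2 and 2 without thio 3.

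In the DNA replication and mitosis lists most members had lower estimates in thio, and most did not pass the test. Over all genes 9.25% were higher and 8.52% lower. Of the members not called, 30 of 32 in replication and 23 of 27 in mitosis had lower estimates. In the DNA replication list 4 of 36 members were lower in thio and 0 higher (median -0.24), and none was called without thio 1 or thio 3, 2 without osimertinib 1 or osimertinib 4, and 7 with the mitochondrial share as a covariate. PCNA, the sliding clamp of replication, was at 111, 132, 53.8 and 118 CPM in thio, against 199, 145, 186, 180.1 and 170.4 CPM in osimertinib (-0.76 ± 0.23, adjusted p = 0.0251), a call lost without thio 1, thio 3, osimertinib 1 or osimertinib 4. In mitosis 1 of 30 was higher and 2 lower (median -0.21), of which KIF20A (-0.76 ± 0.17, adjusted p = 0.00442) held its call in every leave-out. MKI67, the proliferation marker Ki-67, was at 304, 383, 259 and 235 CPM in thio, against 277, 283, 453, 186 and 303 CPM in osimertinib, with full overlap (-0.03 ± 0.22, adjusted p = 0.952). DNA damage checkpoint and repair genes had 1 of 34 higher (NBN) and 1 lower (RAD51C), neither of which was called without thio 3. NBN also lost its call without thio 1, without any osimertinib library other than osimertinib 3, and without any of 6 combination and control libraries.

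Replication-dependent histone genes were lower in thio, at 11 of 20 tested members and none higher (median -0.88), and 8 to 11 when any library was left out. Most of their transcripts carry no poly-A tail, and a poly-A library reads only part of them. H2BC5 was at 7.45, 12.7, 8.81 and 9.13 CPM in thio, against 16.3, 14.3, 15.9, 25.2 and 23.6 CPM in osimertinib (adjusted p = 0.00528). H1-2, a linker histone, and H2BC8 had log2 fold changes of -0.93 ± 0.18 and -1.26 ± 0.29 (adjusted p = 0.00192 and 0.00607). None of the 3 overlapped between the groups.

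Telomere genes, the targets closest to 6-thio-dG, showed 1 call. Of 17 tested genes of telomerase and shelterin, the complex that caps telomeres, TERT alone passed the test, with a list median of -0.07. TERT, the catalytic subunit of telomerase, had 2, 3, 0 and 2 counts in thio, against 19, 27, 5, 19 and 2 counts in osimertinib. The groups overlapped, since osimertinib 5 had as few counts as thio 1 and thio 4. Pooled over each group these were 7 and 72 counts, a ratio of 0.124 in CPM (exact 95% interval 0.0480 to 0.268, which covers counting error only). The adjusted p was 0.0138, and 0.0532 without thio 3. Enzymes that make, activate or break down purines and thiopurines had 2 of 30 members higher and 0 lower (median -0.04), and 2 higher and 3 lower with the mitochondrial share as a covariate. XDH, the xanthine dehydrogenase that ends purine breakdown, was at 181, 46.2, 381 and 111 CPM in thio, against 18.6, 27.1, 16.2, 17.0 and 26.8 CPM in osimertinib (3.09 ± 0.38, adjusted p = 8.02e-05, and 2.43 without thio 3). The groups did not overlap. ADA, adenosine deaminase, had 0.45 ± 0.12 (adjusted p = 0.0157), lost without thio 4.

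Drug-metabolising and antioxidant genes moved in both directions. CYP24A1, which inactivates vitamin D, was at 36.5, 15.0, 124 and 28.3 CPM in thio, against 2.05, 5.43, 2.33, 2.77 and 4.12 CPM in osimertinib (3.92 ± 0.46, adjusted p = 8.02e-05, and 3.01 without thio 3). CYP2S1, an orphan cytochrome P450 of epithelia, was at 13.4, 17.2, 13.1 and 12.0 CPM in thio, against 25.7, 24.4, 31.8, 45.2 and 29.8 CPM in osimertinib (-1.17 ± 0.16, adjusted p = 0.000165). Neither overlapped. In their list 4 of 25 members were higher and 6 lower, with 3 lower without thio 1, thio 3 or osimertinib 4, and 5 higher and 4 lower with the mitochondrial covariate. Of 24 targets of NRF2, the regulator of the antioxidant response, 6 were higher and 4 lower (median -0.05), with 3 higher without thio 3 and 2 lower without thio 1, thio 3 or osimertinib 4, and with 4 higher and 6 lower under the mitochondrial covariate. NQO1, the quinone reductase often used as its readout, was at 91.1, 137, 72.6 and 109 CPM in thio, against 209.9, 179.5, 252, 210.0 and 188 CPM in osimertinib (-1.02 ± 0.19, adjusted p = 0.0011). TXNRD1, another NRF2 target, went the opposite way (1.25 ± 0.28, adjusted p = 0.0045), and the export pump ABCC2 fell by 1.41 ± 0.28 (log2, adjusted p = 0.00212).

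In lipid metabolism ACSL4, which loads arachidonic acid onto coenzyme A, was at 454, 200.4, 1096 and 277 CPM in thio, against 93.8 to 165 CPM in osimertinib (2.02 ± 0.34, adjusted p = 0.000623, and 1.33 without thio 3). The fatty acid list had 4 of 16 members higher and 0 lower, with 1 higher without thio 3, and 2 higher and 1 lower with the mitochondrial covariate. Cholesterol synthesis had 3 of 24 higher and 1 lower, and none higher without thio 3.

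Among the 12 named genes highest in thio was a transporter. SLC6A14, a carrier of neutral and basic amino acids, was at 336, 32.2, 634 and 84.6 CPM in thio, against 4.31, 10.4, 1.74, 8.66 and 9.02 CPM in osimertinib (5.32 ± 0.70, adjusted p = 0.000122, and 4.49 without thio 3). The lowest thio library was about 3 times the highest osimertinib library. SLC43A2, a carrier of large neutral amino acids, rose by 1.64 ± 0.29 (adjusted p = 0.000924). The list had 5 of 20 members higher and 1 lower, with 3 higher without thio 3, osimertinib 4 or osimertinib 5, or with the mitochondrial covariate. ATP1B1, the beta subunit of the sodium pump, was at 899.7, 365, 1549.6 and 459 CPM in thio, against 197, 245, 161, 199 and 178 CPM in osimertinib (2.06 ± 0.31, adjusted p = 0.00025). In its list of pump subunits and potassium channels 3 of 12 were higher and 3 lower.

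Most adhesion and matrix genes were uncalled, as were most of all genes, of which 9.25% were higher and 8.52% lower. The tight junction and mesenchymal transition lists had larger shares called than all genes. The mesenchymal transition counts fell to 1 in either direction without some single libraries. Integrins and laminins had 3 of 21 members higher and 0 lower (median 0.34), and 5 to 7 higher without osimertinib 3, combination 1 or combination 5. LAMB3, a chain of the basement membrane laminin, was at 1333, 878, 3831 and 980.4 CPM in thio, against 673, 724, 714, 472 and 553 CPM in osimertinib (1.48 ± 0.30, adjusted p = 0.00201). The groups did not overlap, and without thio 3 the fold was 0.78. ITGA5, the fibronectin receptor subunit, rose by 0.88 ± 0.19 (adjusted p = 0.00419). MMP7, an epithelial matrix protease, rose by 1.70 ± 0.32 with overlapping groups (adjusted p = 0.0014). MUC1, a mucin of the cell surface, was at 554, 479, 701 and 471 CPM in thio, against 223, 352, 281, 303 and 230.3 CPM in osimertinib (0.99 ± 0.18, adjusted p = 0.00112). CDH11, a cadherin of mesenchymal cells, fell by 1.33 ± 0.24 (log2, adjusted p = 0.000867). It stands in the mesenchymal transition list, which had 3 of 18 members higher and 2 lower, and MMP7 in the matrix protease list, which had 1 of 17 higher and 1 lower. MUC1 was 1 of 2 mucins called higher, of 12. Of 17 tight junction genes 2 were higher, among them CLDN12 (0.90 ± 0.20). The 3 that were lower were CLDN3 (-0.99 ± 0.25, adjusted p = 0.00991), CLDN2 and MARVELD3.

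Few translation genes passed the test. Of 36 cytosolic ribosomal proteins 1 was higher, RPS12 (0.61 ± 0.18, adjusted p = 0.0235), which lost its call without thio 3 or osimertinib 4. Of 30 mitochondrial ribosomal proteins 2 were lower, with MRPL1 at 3.68, 3.78, 2.52 and 3.15 CPM in thio, against 8.53, 6.38, 5.20, 7.60 and 7.18 CPM in osimertinib (-1.08 ± 0.18, adjusted p = 0.000635). Among 16 nuclear RNAs and snoRNA host genes ZFAS1 was higher (0.77 ± 0.15, adjusted p = 0.00189) and SNHG3 and SNHG7 were lower (-0.76 ± 0.18 for SNHG3, adjusted p = 0.00583). SNHG7 lost its call without any single thio library other than thio 2 and without any osimertinib library other than osimertinib 3. With the mitochondrial covariate 3 of the list were higher and 1 lower. YAP and TEAD targets had 3 of 21 higher and 0 lower, of which F3, tissue factor, rose by 0.85 ± 0.18 (adjusted p = 0.00288), with 1 higher without thio 3 and 5 without osimertinib 3, and 2 higher and 2 lower with the mitochondrial covariate.

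Markers of other cell types were few or low. In bulk samples, fewer cells of a type and less RNA per cell cannot be told apart. Host cells are mouse cells, the symbols are human, and how mouse reads were handled is not stated. Low or zero marker counts therefore do not show that host cells of a type were absent. Fibroblast markers summed to 291 to 460 CPM in thio and 530.0 to 874 CPM in osimertinib, without overlap. The largest part of these sums was COL1A1, with a mean of 215 CPM in thio and 464 CPM in osimertinib. The mean log2 CPM of the list, which weighs genes equally, did overlap, at 1.84 to 2.36 in thio and 2.27 to 2.77 in osimertinib. Of 14 tested members 2 were called lower, and of the 12 not called 4 had higher and 8 lower estimates. COL1A1, a collagen chain that carcinoma cells can also express, was at 204, 268, 195 and 194 CPM in thio, against 389, 363, 604, 540.3 and 422 CPM in osimertinib (-1.11 ± 0.24, adjusted p = 0.00399). The other member called lower, POSTN, was named after its value was seen. The part of fibroblasts in the other differences was not tested. Endothelial markers (0 of 10 called), macrophage and neutrophil markers (0 of 7), lymphocyte markers (0 of 3) and skeletal muscle markers (0 of 14) gave no call, 1 of 5 adipocyte markers was higher, and no erythroid marker passed the filter on low counts. By summed CPM the macrophage and neutrophil list was at 11.0 to 16.0 in thio and 13.4 to 18.8 in osimertinib. Within it CSF1R had the most counts, at 155 to 302 counts in thio and 172 to 447 in osimertinib. C1QB was at 1 to 24 counts in thio and 0 to 1 in osimertinib, and CD14 at 9 to 24 in thio and 3 to 14 in osimertinib. Other members ranged higher in osimertinib, with CSF3R at 8 to 18 counts in thio and 10 to 40 in osimertinib. ITGAM was at 17 to 50 in thio and 29 to 61 in osimertinib. Of the 7 tested, 4 had higher and 3 lower estimates. The part of leukocytes in the cytokine values was not tested. The defining markers FCGR3B, MS4A1 and GNLY had 0 counts in every thio library, and C1QA and NKG7 in every osimertinib library.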

How the data were processed

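RNA-seq libraries came from 19 HCC827 xenograft tumours, 4 thio and 5 each of osimertinib, combination and control, grouped by the treatment label. Libraries were poly-A selected with a kit that does not mark strand, per the labels' protocols, so overlapping and antisense genes cannot be told apart. The submitters' processing notes name FastQC, Trimmomatic, STAR and hg38. Versions, the counter, its annotation and how mouse reads were handled are not stated in any source used here. The authors deposited raw counts for 31276 gene symbols, and 322 symbols form 156 sets with identical counts.

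From these counts, genes passing filterByExpr by group (count minimum 10, total minimum 15) were scaled by TMM and tested with the quasi-likelihood test of edgeR 4.0.16 in R 4.3.3. All 19 libraries entered 1 fit, with thio over osimertinib as the contrast, and Benjamini-Hochberg adjustment ran over the 16704 genes tested, called under 0.05. Every adjusted p and SE comes from this fit. CPM values are TMM-scaled, except the marker sums and shares, which use total counts. The mean log2 CPM uses a prior count of 2. In the 9 libraries 3 counts equal 0.0848 to 0.130 CPM. The fit was tested on simulated counts. Figures used Python 3.11.15 and matplotlib 3.10.9.

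The members and the 54 lists (1123 genes, 1034 tested) were chosen with earlier results of these data known, so lists are described by counts and medians and no list was tested. Named were the 12 largest folds in each direction among called genes with a mean log2 CPM of at least 2 and no overlap between the groups, leaving out clone, LOC, LINC, pseudogene and antisense symbols. Further named were up to 4 called members of each list with the smallest p and a mean log2 CPM of at least 2, and AXL, CDKN1A, DUSP6, EGFR, MKI67, SUCLG2 and TERT. Other genes were named after their values were seen. Alternatives were DESeq2 1.42.0, limma 3.58.1 voom with quality weights, 2 other scalings, 2 other filters, the 2 groups alone, the mitochondrial share as a covariate or its genes removed, and libraries left out.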

Additional observations from a re-analysis of the deposited data

Results flagged for a closer look

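Among 382 groups of library values checked (136 genes of the text, each list and the mitochondrial share, in thio and in osimertinib), 19 held a library far from the others of its group, or 4.97%. Chance gives about 1 in 20 groups. Among gene lists, by mean log2 CPM, these were the S100 proteins in thio 2 (5.23), the alveolar and simple epithelial genes in osimertinib 3 (2.66), telomerase and shelterin in osimertinib 5 (4.15) and replication-dependent histones in osimertinib 4 (2.21). In thio 3 they were CD55 at 357 CPM, RAD51C at 7.04 CPM, H1-2 at 14.3 CPM, LAMB3 at 3831 CPM and PTGES at 231 CPM, and in thio 2 COL1A1 at 268 CPM. In osimertinib 4 they were LOX at 1.60 CPM, ALDOC at 4.23 CPM, CNFN at 2.06 CPM and VSIG10L at 12.6 CPM. In osimertinib 2 they were CXCL8 at 34.9 CPM and MAFF at 36.7 CPM, in osimertinib 3 JUP at 374 CPM and DUSP5 at 15.6 CPM, and in osimertinib 5 ADA at 18.5 CPM.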

How the results depend on the processing

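The counts of called genes depended on test and libraries. Against 2969 genes called (1545 higher in thio, 1424 lower), voom with quality weights called 4611 (2390 higher, 2221 lower), and leaving out thio 3, combination 3 and combination 5 together called 1776 (983 higher, 793 lower). Leaving out 1 library at a time gave 1387 to 3421 called, 788 to 1826 higher and 599 to 1595 lower, lowest without thio 3 in all 3. DESeq2, the stricter filter or none, scaling by RLE or upper quartile, the 2 groups alone, the mitochondrial covariate, removal of mitochondrial genes, and leaving out osimertinib 5 with control 5 gave 2188 to 3640 called. The share of called genes that were higher was 52.0%, and 35.9% with upper-quartile scaling. Of the genes given as called, PSPH, KLK5, KLK7, CNFN, DNAH11, MARVELD3 and POSTN were not followed one by one. None of the others changed direction under any of these alternatives. The median of 15 lists, at most 0.50 in size, changed sign under at least 1 of them, among these the TCA cycle, at -0.13 with the mitochondrial covariate. Among named genes, 35 calls were lost without the 3 libraries, 34 with the mitochondrial covariate, 23 without osimertinib 5 and control 5, 20 without the filter, 16 with upper-quartile scaling, 9 with the 2 groups alone, 2 without mitochondrial genes and 1 each with voom and DESeq2. Of those described above, HLA-E, TAPBP, JUP, LPCAT1, EDEM1, NBN, FOSL1, EGFR, IQCN, RPS12 and SNHG7 lost it with the mitochondrial covariate, and TAPBP, JUP, ADA, BAX, NBN and EGFR without the filter. Upper-quartile scaling ended those of TAPBP, ADA, NBN and RPS12. The cause was not tested. The difference in mitochondrial share ran from -6.35 to -4.50 percentage points as single libraries were left out, and ribosomal RNA could not be added to it, since the table lists none apart. No paired analysis was possible because replicate numbers follow the order of the samples and pair nothing. Depth limited genes near 3 counts, such as TERT.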

Other observations

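Some genes outside the named ones were picked after their values were seen. The acute phase genes SAA1 and SAA2, which are near-identical so that their reads are uncertain, had log2 fold changes of 3.27 ± 0.49 and 3.62 ± 0.47 (SE, thio over osimertinib, edgeR adjusted p = 0.000238 and 0.000107). SAA2 was at 159.6, 44.9, 221 and 83.5 CPM in thio, against 6.83, 19.1, 3.40, 12.3 and 10.2 CPM in osimertinib, with no overlap. LCN2, which withholds iron from bacteria, was at 3650.3, 1224, 5083 and 1327 CPM in thio, against 277, 939.9, 85.6, 618 and 358 CPM in osimertinib (2.63 ± 0.52, adjusted p = 0.0018). The cytokine genes IL36G and IL23A were higher as well (3.71 ± 0.64 and 3.51 ± 0.61, adjusted p = 0.000669 and 0.000686), but for IL23A thio 2, at 18.3 CPM, lay inside the osimertinib range of 14.7 to 23.5 CPM. Without thio 3 the folds of SAA1, IL36G and IL23A were 2.65, 2.69 and 2.27. PTGES, the enzyme after PTGS2 in prostaglandin synthesis, rose by 1.24 ± 0.29 (adjusted p = 0.00641), a call lost without thio 3, while the prostaglandin receptor PTGER4 did not pass the test (0.66 ± 0.40, adjusted p = 0.275).

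Among further genes picked in the same way, SLC39A8, an importer of zinc and manganese, was at 137, 30.2, 621 and 81.7 CPM in thio, against 23.0, 19.8, 13.2, 14.3 and 18.3 CPM in osimertinib (3.62 ± 0.53, adjusted p = 0.000204, and 2.24 without thio 3). The metallothionein MT1X rose by 2.33 ± 0.41 without overlap and MT2A by 1.87 ± 0.36 with overlap (adjusted p = 0.00087 and 0.00176), or 1.54 and 1.03 without thio 3. STC1, a secreted hormone that hypoxia is known to induce, was at 110.4, 63.1, 171 and 77.5 CPM in thio, against 4.87, 15.7, 2.91, 6.14 and 16.1 CPM in osimertinib (3.53 ± 0.43, adjusted p = 8.02e-05). NOS3, the endothelial nitric oxide synthase, was at 2.42, 1.84, 1.11 and 0.636 CPM in thio, against 5.34, 7.86, 6.13, 10.9 and 3.72 CPM in osimertinib (-2.18 ± 0.37, adjusted p = 0.000628).

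By class of symbol, 105 of 727 tested antisense or divergent transcripts were lower in thio (14.4%) and 20 higher (2.75%), with a median log2 fold change of -0.32. Zinc finger genes had 51 of 472 lower (10.8%) and 23 higher (4.87%), and solute carriers 25 of 269 lower (9.29%) and 40 higher (14.9%). Over all genes 8.52% were lower and 9.25% higher. Reads of antisense transcripts cannot be told apart from those of their partners in libraries without strand.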
